A study of Mus musculus with 6 samples.

Results

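Acetylation of lysine 27 of histone H3 (H3K27ac) was profiled in 2 cell populations sorted from the lungs of mouse embryos at E16.5, a stage named by the day of embryonic life. The regions described here lie away from annotated gene ends, are under 5 kb wide and carried a called H3K27ac peak in every library of both populations. They were found by merging all peaks that overlapped by at least 1 bp across the 4 peak lists (chromosomes 1 to 19, X and Y). Merged regions were kept when all 4 libraries had a peak in them and when they lay more than 2 kb from both ends of every gene of the mm10 annotation. This left 1424 regions of 132212 merged regions. They were chosen by the measured presence of a peak in all libraries and by width, and by distance from genes, so these values are given as descriptions.

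One population was mesothelium, the outer lining of the lung, sorted as PDPN+EPCAM-CD45-CD31-DAPI- cells, and the other was epithelium, sorted as PDPN+EPCAM+CD45-CD31-DAPI- cells. PDPN is podoplanin, EPCAM marks epithelia, CD45 marks blood cells, CD31 marks endothelium, and DAPI stains dead cells. Mesothelium replicates 1 and 2 used 25k and 100k cells, against 100k and 200k cells for the epithelium replicates, according to the sample titles, while the protocol gives a range for this mark that does not hold all of these numbers. All lungs came from matings of Myrf Fl/Fl mice, whose Myrf alleles carry loxP sites. The labels name no Cre, and the series design text describes wildtype cells. Lungs were pooled before sorting and nothing says that replicates came from separate animals, so the p-values measure only the spread between libraries, which may be technical. Another 2 libraries, made with a control IgG antibody from epithelium, were not analysed here. CUT&RUN, the assay used, lets an antibody bring a nuclease to a chromatin mark, so that the DNA around the mark is cut out and sequenced.

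H3K27ac is deposited mainly by the acetyltransferases CBP and p300 and marks active promoters and active enhancers. Enhancers are often specific to a cell type, whereas promoters of widely used genes are acetylated in most cells. A region far from the annotated ends of genes can be an enhancer, or the promoter of a transcript that begins inside a longer gene. H3K27ac alone does not tell these apart.

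Internal promoters are the one feature of these regions that can be read as sequence here. RefSeq promoter windows, which run from 250 bases before to 50 bases after an annotated start, were available for starts on every chromosome but 1. Of the 1377 regions on the other chromosomes, 100 (7.26%) held at least 1 annotated start, 116 starts of 98 genes in all.

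The following 6 windows (RefSeq, GRCm38.p6, the assembly that mm10 names) are shown because their start base was covered by peaks in all 4 libraries and their regions rank highest among those by peak strength, with 1 window shown per region. Each is written 5′ to 3′ on the gene's strand, and capitals mark matches to any of 10 short motifs on either strand.
4930522L14Rik: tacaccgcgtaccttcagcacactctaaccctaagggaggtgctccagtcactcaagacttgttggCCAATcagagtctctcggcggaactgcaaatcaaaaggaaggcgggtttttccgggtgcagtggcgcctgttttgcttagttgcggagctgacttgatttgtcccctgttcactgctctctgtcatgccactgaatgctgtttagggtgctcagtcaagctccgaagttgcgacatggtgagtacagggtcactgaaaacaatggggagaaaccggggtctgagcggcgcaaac
Ccser2: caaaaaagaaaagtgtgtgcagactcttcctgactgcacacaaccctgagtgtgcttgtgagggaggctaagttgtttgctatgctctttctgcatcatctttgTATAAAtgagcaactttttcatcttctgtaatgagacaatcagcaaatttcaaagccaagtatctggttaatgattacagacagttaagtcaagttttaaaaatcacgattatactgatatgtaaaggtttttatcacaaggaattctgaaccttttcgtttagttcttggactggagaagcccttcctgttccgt
Srpk2: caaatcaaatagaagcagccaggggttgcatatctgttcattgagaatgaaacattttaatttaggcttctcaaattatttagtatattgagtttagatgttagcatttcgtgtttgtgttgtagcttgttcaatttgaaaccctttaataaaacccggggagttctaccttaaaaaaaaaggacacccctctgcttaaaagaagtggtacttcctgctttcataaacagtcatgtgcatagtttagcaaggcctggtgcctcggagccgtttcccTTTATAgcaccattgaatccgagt
Rcbtb2: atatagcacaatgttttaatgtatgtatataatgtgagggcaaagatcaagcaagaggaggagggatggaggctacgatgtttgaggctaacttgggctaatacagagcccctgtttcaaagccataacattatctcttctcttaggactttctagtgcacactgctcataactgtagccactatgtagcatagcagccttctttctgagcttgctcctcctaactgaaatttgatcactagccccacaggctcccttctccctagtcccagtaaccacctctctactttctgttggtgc
Zmynd8: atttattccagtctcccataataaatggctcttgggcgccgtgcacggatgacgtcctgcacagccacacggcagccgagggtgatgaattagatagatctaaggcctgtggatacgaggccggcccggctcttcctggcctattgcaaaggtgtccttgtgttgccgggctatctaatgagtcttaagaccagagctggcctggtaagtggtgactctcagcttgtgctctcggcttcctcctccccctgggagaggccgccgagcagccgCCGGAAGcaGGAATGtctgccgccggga
Amotl1: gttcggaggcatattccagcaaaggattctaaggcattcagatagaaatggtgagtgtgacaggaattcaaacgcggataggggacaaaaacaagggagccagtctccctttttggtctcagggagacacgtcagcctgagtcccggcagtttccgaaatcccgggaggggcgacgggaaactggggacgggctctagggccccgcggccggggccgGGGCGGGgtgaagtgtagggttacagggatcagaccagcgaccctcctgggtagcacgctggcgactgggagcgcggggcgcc
The window of 4930522L14Rik lies at chr5:109751538-109751837 on the minus strand and has 1 match, to CCAAT. The Ccser2 window (chr14:36919486-36919785, minus) and the Srpk2 window (chr5:23616522-23616821, minus) each hold 1 match to TATAAA, with GC contents of 37.7% and 38.3%. The Ccser2 match lies far before the start, and the Srpk2 match is on the opposite strand and after the start. The first of 2 Rcbtb2 windows in its region (chr14:73142260-73142559, plus) has no match, and the other holds a TEAD match. In the Zmynd8 window (chr2:165858124-165858423, minus) an ETS match, CCGGAAG, and a TEAD match, GGAATG, stand 2 bases apart close to the start. The Amotl1 window (chr9:14614951-14615250, minus) has a GC content of 61.3% and 1 match to GGGCGGG, the SP motif. Letters alone do not show that a factor binds.

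Starts of this kind were more frequent in these shared regions under 5 kb than in the other classes of distal region counted here, which have no width limit. This comparison is descriptive. Some distal regions, among them the 457 of 5 kb or more present in all 4 libraries, were not counted. The share was 7.26% in the 1377 regions, against 1.77% of mesothelium-only distal regions, 1.02% of epithelium-only distal regions, 2.98% of distal regions present in 3 libraries and 0.200% of those present in 1 library. The shared regions are also wider, so they were compared per length: 23.5 regions with a start per Mb of merged length, against 10.03 in mesothelium-only, 5.72 in epithelium-only, 11.2 in 3-library and 3.12 in 1-library distal regions. The order thus held per length. The 47 regions on chromosome 18, which has no windows, are left out of these shares. Of the 116 starts, 38 were covered in all 4 libraries, 38 in 3, 22 in 2 and 18 in 1.

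**Figure D1:**
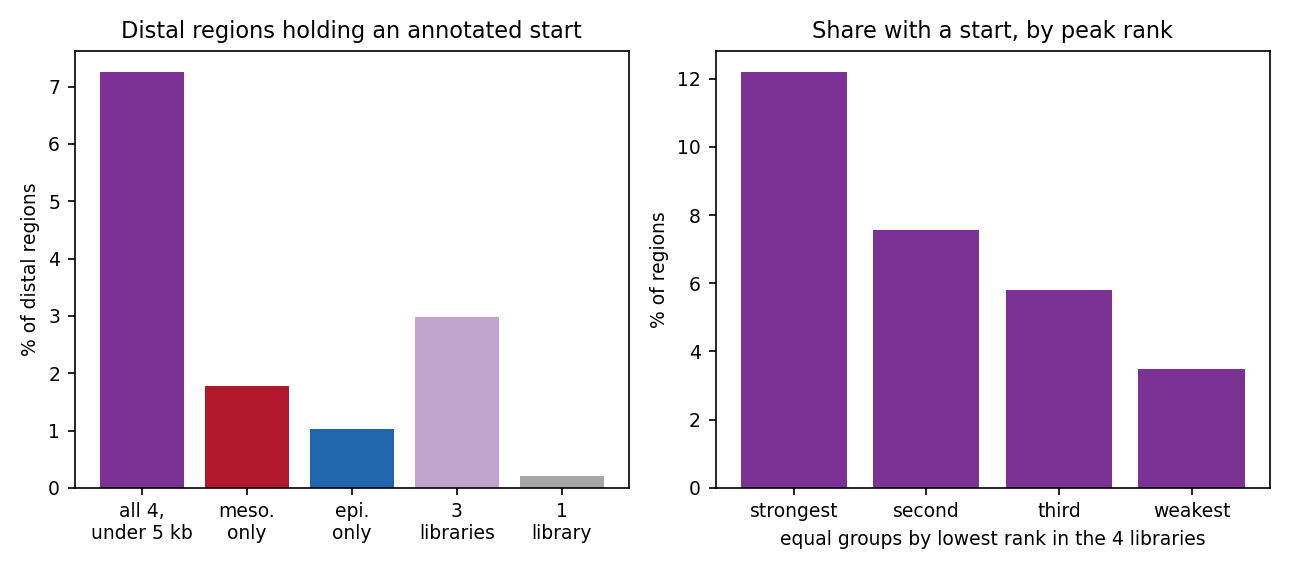
Left, percent of distal regions that hold an annotated start, for regions under 5 kb in all 4 libraries, mesothelium-only (meso.), epithelium-only (epi.), 3-library and 1-library regions, chromosome 18 left out. Right, the same percent among the 1377 regions in 4 groups of equal size by the lowest of the 4 percentile ranks of −log10 q; it runs from 12.2% in the strongest group to 3.48% in the weakest.

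Regions with a start had stronger and better aligned peaks. Peak strength was the authors' −log10 q, ranked as a percentile within each library's own list. A base covered by peaks of all 4 libraries existed in 87 of the 100 regions with a start (87.0%), against 758 of the 1277 without (59.4%). All 4 libraries reached a −log10 q of 2 in 17 of the 100 regions (17.0%), against 102 of the 1277 (7.99%). In 4 groups of equal size by the lowest percentile of the 4 libraries, 42 of 344 regions in the strongest group held a start (12.2%), followed by 7.56%, 5.81% and 3.48%.

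The sequence at these starts was that of CpG-rich promoters more often than at other internal starts. With a GC content of at least 50% and a ratio of observed to expected CpG of at least 0.6, 62 of the 116 windows were CpG-rich (53.4%), against 19.8% of the 3638 starts more than 2 kb from any gene end and 33.5% of all 32851 windows. The motif TGACGTCA (CRE, read by CREB and ATF factors) was in 6.90% of the 116 windows, against 1.24% of internal and 1.79% of all windows. CCGGAAG, the ETS motif, was in 15.5%, against 4.37% and 8.86%, and GGGCGGG was in 40.5%, against 19.4% and 25.6%. GCGCATGC (NRF1) was in 3.45%, against 1.51% and 2.71%, and AAGATGGC (YY1) in 2.59%, against 1.84% and 2.75%. The TATA letters TATAAA were rarer, in 6.03%, against 13.5% and 13.6%, as was CCAAT, in 30.2%, against 36.4% and 37.4%. The motifs of AP-1 (TGANTCA, 8.62%, against 8.69% and 7.81%), TEAD (GGAATG, 18.1%, against 16.3% and 14.7%) and the E-box CACGTG (6.90%, against 5.31% and 7.15%) were about as frequent as elsewhere. GC-rich motifs are more frequent in GC-rich windows, and the median GC content was 58.3%, against 50.7% and 52.7%.

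The peaks in the 1424 regions were mostly single, and longer and stronger than most of their lists, although close to the deposited threshold. The median merged width was 3051 bp, between 626 and 4996 bp. Peaks covered a median of 1388.5 and 1304.5 bp of a region in the mesothelium libraries, against 1487.5 and 1341.5 bp in the epithelium libraries. The median peak of the whole lists was 588 and 613 bp in mesothelium, against 580 and 571 bp in epithelium. Between 95.5% and 96.4% of the regions had 1 peak per library. The authors' median −log10 q of the best peak was 1.96 and 2.27 in the mesothelium lists, against 1.84 and 1.86 in the epithelium lists, close to the 1.56 to 2.05 of whole lists, and the lowest deposited value was between 1.00 and 1.03. As a percentile within its own list the best peak had a median of 66.3 and 62.6 in mesothelium, against 67.5 and 68.5 in epithelium. Median fold enrichment was 3.78 and 3.89 in mesothelium, against 3.70 and 3.73 in epithelium. A −log10 q of at least 2 in all 4 libraries was found in 121 regions (8.50%), against 16.3% of shared narrower regions near gene ends and 24.4% of shared regions of at least 5 kb. The regions held 3.79% and 3.55% of the mesothelium peaks, against 3.10% and 3.19% of the epithelium peaks.

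**Figure D2:**
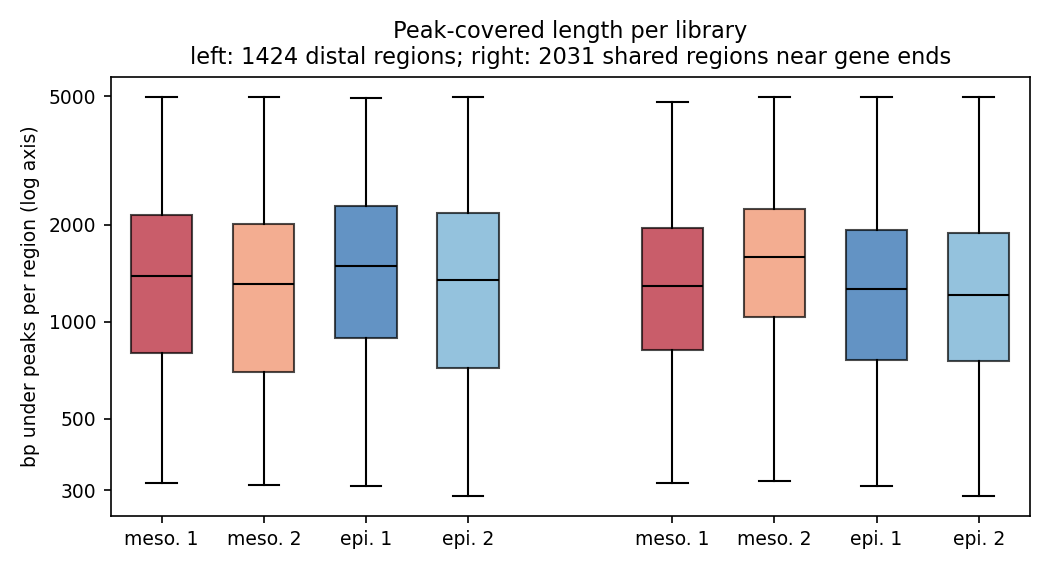
Base pairs under peaks per region and library (log axis), for the 1424 shared narrower distal regions (left) and 2031 shared narrower regions within 2 kb of a gene end (right); boxes show quartiles, lines the median, whiskers the lowest and highest region. In the distal regions the 4 medians lie between 1304.5 and 1487.5 bp.

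Sharing a merged region did not mean sharing bases. Only 872 of the 1424 regions (61.2%) had a base that peaks of all 4 libraries covered, and 552 had none, because 2 peaks that do not overlap can be joined by another. The share was 79.6% of the 2031 shared narrower regions near gene ends and 64.5% of the 823 shared regions of at least 5 kb. The median stretch covered in all 4 libraries was 212 bp, against 403 bp near gene ends. Within the regions, the bases covered in both libraries of a pair made up 0.350 of those covered in either when both were mesothelium and 0.376 when both were epithelium, against 0.333 to 0.356 for the 4 pairs of mesothelium with epithelium. The mesothelium pair thus lay within the range of the pairs of different cell types, and the epithelium pair above it. A base in common was found in fewer regions within a cell type (87.5% for mesothelium, 88.8% for epithelium) than between cell types (89.4% to 92.0%). Near gene ends, the share of bases covered in both was 0.458 for mesothelium, 0.418 for epithelium and 0.404 to 0.448 between cell types. A base in common was found there in 96.7% and 93.5% of regions, against 93.6% to 97.0% between cell types.

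**Figure D3:**
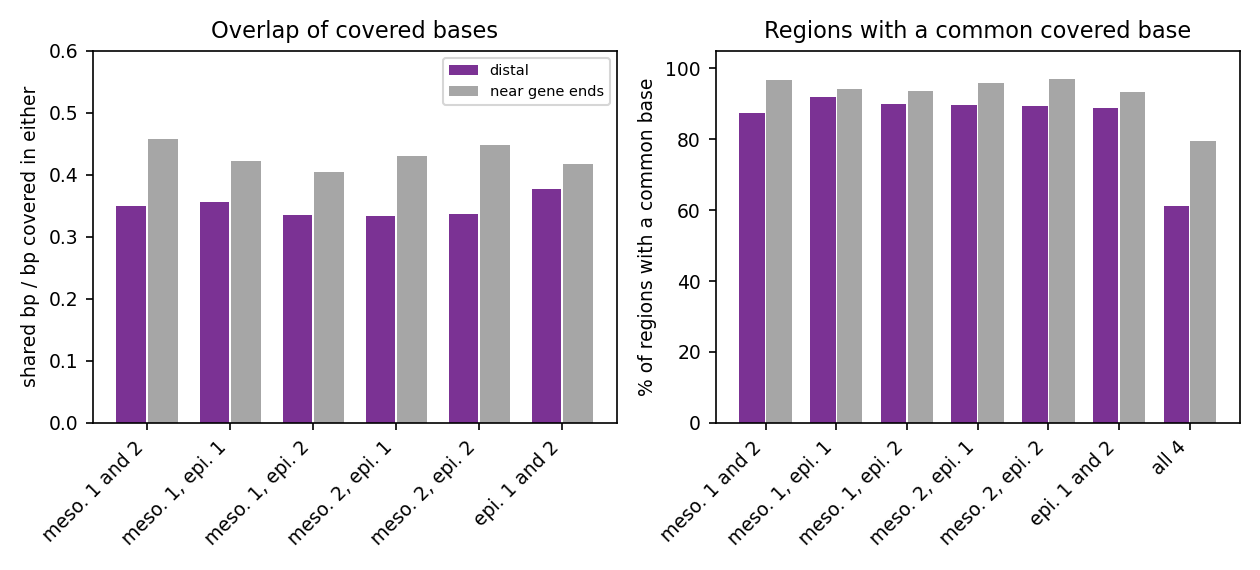
Left, bases covered in both libraries of a pair as a share of bases covered in either, for distal (purple) and gene-end (grey) shared narrower regions. Right, percent of regions with at least 1 base covered in both libraries or, at the far right, in all 4 (61.2% of distal and 79.6% of gene-end regions).

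The distal regions with the strongest peaks in every library were led by 1 that is far from coding genes. By the lowest percentile of the 4 libraries, the region at chr8:20121812-20124308 came first, with −log10 q values of 9.50 and 11.2 in mesothelium, against 5.53 and 7.42 in epithelium. Its peaks covered 2387 and 2024 bp in mesothelium, against 1823 and 1511 bp in epithelium, and 1490 bp were common to all. It was the 1 region of 1424 with a −log10 q of at least 4 in all 4 libraries. The nearest coding gene, 9530057J20Rik, lies 188 kb away, and the nearest end of any annotated gene 11974 bp away. The next was chr5:109749904-109752562 in 4930522L14Rik, which holds the start shown above, with −log10 q of 3.87 and 6.67 in mesothelium, against 3.44 and 3.40 in epithelium. The order by fold enrichment differs. In the chr8 region it was 4.70 and 4.62 in mesothelium, against 4.39 and 4.28 in epithelium. In the chr5 region it was higher, 5.10 and 6.45, against 4.82 and 4.68.

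Of the 12 strongest regions, 5 held an annotated start, in 4930522L14Rik, Ccser2, Srpk2, Stag1 and Rcbtb2. The Srpk2 region lies 67.3 kb from the nearest end of this gene, which encodes a kinase of splicing factors. Peaks covered 2184 and 1297 bp of it in mesothelium, against 1284 and 1024 bp in epithelium. The Stag1 region (chr9:100641036-100645959) lies in a gene for a cohesin subunit, and its start was covered in 2 libraries only. Other strong regions were in Smad6, an inhibitor of BMP signalling, in Fras1, an extracellular matrix protein, 6.60 kb from Sp1, a transcription factor, and 102 kb from Kitl, the ligand of the KIT receptor. Peaks covered 3704 and 760 bp of the Smad6 region (chr9:63984365-63988383) in mesothelium, against 1981 and 2157 bp in epithelium. The widest stretch common to all 4 libraries was 2721 bp, in Cab39 (chr1:85808842-85813658), where peaks covered 3674 and 3917 bp in mesothelium, against 3630 and 2749 bp in epithelium. Nr6a1 and 1110051M20Rik followed with 2344 and 2298 bp, and Phactr2 had 2224 bp.

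Most of the regions lie inside long genes. Of the 1424, 1184 (83.1%) were inside a protein-coding gene, against 82.3% of 3-library, 77.4% of mesothelium-only, 68.0% of epithelium-only and 60.0% of 1-library distal regions. Of the 240 others, 195 were outside any annotated gene. By the gene that holds a region or is nearest to it, 1041 of 21887 coding genes (4.76%) had at least 1, and 248 had 2 or more. Their median length was 83.7 kb, against 17.2 kb for all coding genes, and 14.2% of genes of at least 50 kb had a region. The median distance to the nearest gene end was 14969 bp, and the farthest was 374 kb, for a region at chr5:46788983-46792706 whose nearest coding gene is Lcorl. Chromosome X held 4 regions (0.281%), against 2.34% of all merged regions, and Y held none. Few regions of any kind were shared on X, which held 16 of the 4278 present in all 4 libraries.

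Along the gene the regions were fewer near the 3′ end. For 989 regions inside genes of known strand, 24.7%, 32.4%, 27.7% and 15.3% lay in the 4 equal parts of the gene from its 5′ to its 3′ end. The same shares were 21.5%, 27.2%, 27.6% and 23.7% for 43400 distal regions present in 1 library. For 3-library distal regions the part at the 3′ end held 18.3%. The nearest or holding gene had peaks at a gene end (within 1 kb) in all 4 libraries for 329 regions (23.1%), against 22.4% of 3-library, 19.8% of mesothelium-only, 15.1% of epithelium-only and 13.9% of 1-library distal regions. With only peaks of −log10 q of at least 2 kept, this share was 5.60% of 125 regions. The peaks at gene ends then had to reach this value in all 4 libraries too. The shares of the other classes were not computed at this threshold, so the 5.60% has no background.

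**Figure D4:**
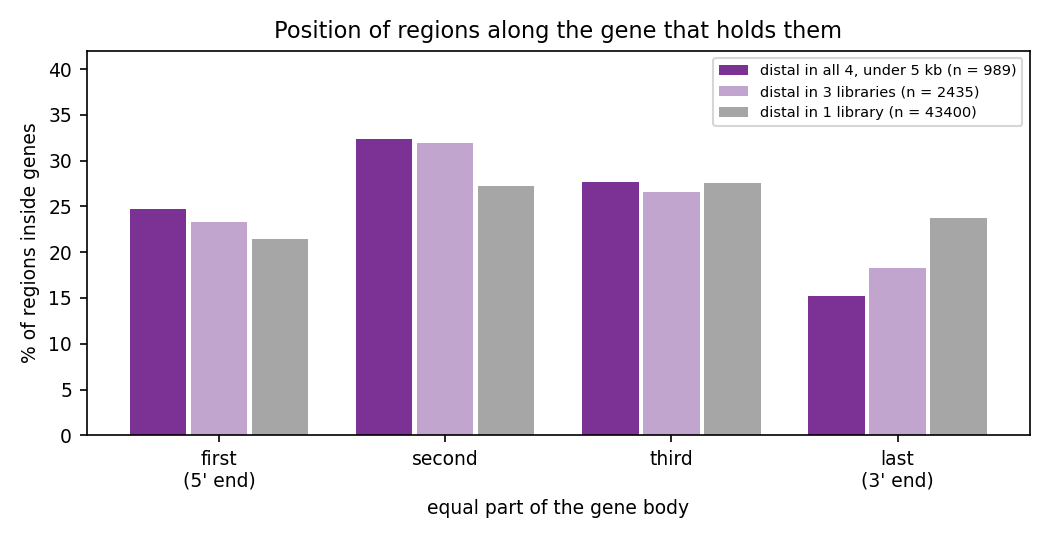
Percent of regions inside genes of known strand in 4 equal parts of the gene body, from the 5′ to the 3′ end, for the shared narrower distal regions (n = 989), 3-library (n = 2435) and 1-library (n = 43400) distal regions. The part at the 3′ end holds 15.3% of the shared regions and 23.7% of the 1-library regions.

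Some genes held many regions. App, the amyloid precursor protein, had 8 regions in its domain, which is the gene plus flanks of up to 50 kb that are nearest to it. Ttll5, a tubulin-modifying enzyme, Ano6, a membrane scramblase, Thada and Fndc3b had 6 each. Ski, a repressor of SMAD transcription, Lims1, an adaptor at integrin adhesions, and Ctdspl, a phosphatase, had 5 each. The App domain held 21.9 and 30.3 kb under peaks in mesothelium, against 57.0 and 62.7 kb in epithelium. In the Lims1 domain these were 34.7 and 31.0 kb, against 30.8 and 26.3 kb. All 5 Lims1 regions but only 4 of the 8 App regions had a base covered in all libraries.

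The share of genes with a region differed between gene lists, which also differ in gene length, and long genes have more regions. Of 16 genes listed for YAP, TAZ and TEAD, which are linked to Hippo signalling, 6 had a region: Amotl1, Ccn1, Lats2, Tead1, Wwtr1 and Yap1, with 11 regions. In Amotl1, an angiomotin that binds YAP at junctions, peaks covered 2949 and 2095 bp in mesothelium, against 2064 and 3275 bp in epithelium, and 1677 bp were common. At the region 15.9 kb from Tead1 they covered 993 and 1650 bp, against 839 and 1058 bp. In Wwtr1, which encodes TAZ, they covered 3190 and 2280 bp, against 616 and 1490 bp, with no base common to all 4. The groups overlap in Amotl1 and do not in Wwtr1; at Tead1 mesothelium replicate 1 lies within the epithelium values.

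Of 22 TGF-beta and FGF pathway genes, 9 had a region: the ligands Bmp4 and Tgfb2, the receptors Tgfbr2 and Tgfbr3, and Smad2, Smad3, Smad4, Smad6 and Smad7. No FGF gene of the list was among them. The region 45.7 kb from Bmp4 had 1913 and 1846 bp under peaks in mesothelium, against 2030 and 1057 bp in epithelium. Of 20 chromatin regulators 7 had one, including Smarca2, an ATPase of the SWI/SNF remodeller, where peaks covered 2013 and 2448 bp in mesothelium, against 1836 and 1227 bp in epithelium. Of the 4 nuclear factor I genes, Nfia and Nfib had 7 regions together. The leading Nfib region (chr4:82474211-82478380) had 1066 and 872 bp, against 1479 and 3658 bp.

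In the other lists, the genes with a region were 3 of 20 hedgehog and WNT genes (Ctnnb1, Gli3 and Rspo2), 3 of 20 immediate early genes (Ier2, Jun and Klf6), 3 of 20 actin and adhesion genes (Ahnak and Lpp among them), 3 of 12 nuclear receptor genes (Nr3c1 and Nrip1 among them) and 1 of 16 ubiquitous elongation and translation genes. The Ctnnb1 region, in the gene for beta-catenin, had 2386 and 3095 bp in mesothelium, against 990 and 2161 bp in epithelium. Among lineage genes, 1 of 20 mesothelial markers (Igfbp5), 2 of 20 mesodermal factors (Zeb2 among them) and 2 of 20 lung epithelial factors (Foxa2 and Sox2) were nearest to a region. The region was 54.9 kb from Igfbp5, 115 kb from Foxa2, 496 kb from Sox2 and 1070 kb from Zeb2. None of 20 epithelial surface genes, 15 fibroblast, 12 endothelial, 12 blood and 8 neural markers had one, nor did any of 7 sort marker and MYRF genes (Pdpn, Epcam, Ptprc, Pecam1, Myrf, Myrfl and Tmem98). Of genes of at least 50 kb, of which 14.2% had a region in all, 5 of 8 had one in the YAP list, 7 of 12 in the TGF-beta and FGF list, 7 of 16 among chromatin regulators, 3 of 8 each among actin and nuclear receptor genes, 2 of 8 each among hedgehog and WNT genes and mesodermal factors, 0 of 6 among mesothelial markers and 0 of 5 among endothelial markers.

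The labelled cell types were checked with markers. Mesothelial markers (8 genes) summed to 25.1 and 60.1 kb under peaks in mesothelium, against 2.67 and 6.39 kb in epithelium, where Upk3b, Lrrn4, Gpm6a and Bnc1 had no peak in either library. Upk3b had none in mesothelium replicate 1 either. Lung epithelial markers (8 genes) summed to 25.3 and 3.69 kb in mesothelium, against 143 and 161 kb in epithelium. Nkx2-1 had no peak in mesothelium replicate 2. Fibroblast markers summed to 15.6 and 17.7 kb in mesothelium, against 4.48 and 5.59 kb, endothelial markers to 15.6 and 11.2 kb, against 3.96 and 7.55 kb, blood markers to 4.91 and 5.43 kb, against 1.58 and 2.14 kb, and neural markers to at most 1.29 kb in any library. In both mesothelium libraries the endothelial genes Cdh5 and Erg and the blood genes Ptprc, Spi1, Cd79a and Gata1 had no peak, while each fibroblast marker had one in at least 1 of them. Mesothelium replicate 1 had more at the epithelial markers than replicate 2. The surfactant gene Sftpc had a peak only in epithelium replicate 2. Of the genes for proteins that the mesothelium sort excluded, Pecam1 (CD31) held 5.43 and 1.53 kb in mesothelium, against 2.305 and 1.92 kb in epithelium, and Epcam 0.685 and 1.02 kb, against 5.35 and 4.48 kb. Pdpn, which both sorts selected for, held 0.364 and 0 kb in mesothelium, against 10.4 and 8.97 kb in epithelium. The part of other cells in the results, including which regions count as shared and how library pairs overlap, was not tested. In bulk libraries, acetylation in fewer cells and less of it per cell cannot be told apart.

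No shared region passed the test for covered length between the cell types. The rule did not use which cell type covers more, but it limits the difference, since every library has a peak and no region reaches 5 kb. The log2 covered length was fitted with limma over all 4278 merged regions present in all 4 libraries, centred on the median. None of the 1424 distal regions was called at a Benjamini-Hochberg adjusted p under 0.05 in either direction, as was none of all 4278 (0.0%). The lowest adjusted p among the 1424 was 0.181. At an unadjusted p under 0.05, limma gave 115 of the 1424 (8.08%), of which 32 were longer in mesothelium and 83 in epithelium, against 410 of the 4278 (9.58%). The median difference, mesothelium minus epithelium, was -0.11 on the log2 scale, against 0.03 over all 4278. Scaling to each library's total turned this, with 71 longer in mesothelium and 57 in epithelium and a median of 0.13, against 0.26 over all 4278. Without mesothelium replicate 2 the median was 0.04, against 0.06 over all. No direction is read from these values, since it turns with the scaling. The median absolute log2 difference was 0.85 between the mesothelium libraries and 0.80 between the epithelium libraries. Between the means of 2 libraries per cell type, which vary less than single libraries, it was 0.70. Both mesothelium libraries exceeded both epithelium libraries in 251 regions (17.6%), against 21.2% of all 4278. Both fell below them in 321 (22.5%), against 19.4% of all.

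The largest differences among regions without overlap between the groups are given as values, since none passed. In Sptbn1, which encodes a spectrin, peaks covered 3827 and 2711 bp in mesothelium, against 381 and 370 bp in epithelium (chr11:30209827-30213901). The log2 difference was 3.06 ± 0.83 (SE, limma adjusted p = 0.198). In Stn1, a telomere maintenance gene, they covered 2363 and 2370 bp, against 321 and 308 bp. Eps8, an actin regulator, had 4178 and 3040 bp, against 505 and 649 bp. Dyrk1a, a kinase, had 3098 and 3549 bp, against 1004 and 288 bp, and a region 118 kb from Tns1, an adhesion protein, had 4945 and 1471 bp, against 517 and 378 bp. In all 5 every mesothelium library was above every epithelium library, as the choice required.

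In the other direction, the region in Tgfb2, a TGF-beta ligand (chr1:186633949-186638692), had 383 and 431 bp in mesothelium, against 2846 and 4744 bp in epithelium. Its log2 difference was -3.22 ± 0.83 (SE, limma adjusted p = 0.181). Wwc1, which encodes the Hippo regulator KIBRA, had 337 and 545 bp, against 4629 and 3101 bp. Plcb1, a phospholipase, had 598 and 392 bp, against 4011 and 3657 bp. Oca2, a melanosome protein, had 331 and 343 bp, against 2623 and 2616 bp, and a region 126 kb from Opa1 had 575 and 519 bp, against 4633 and 3655 bp. In Plcb1, Oca2 and Sptbn1, and near Opa1 and Tns1, no base was common to all 4 libraries.

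Whole gene domains were tested as well, and 60 of the 1000 that hold a region passed. The kb under peaks per domain were fitted with limma on log2(kb + 0.5) over 10484 domains whose mean reached 0.5 kb. Of the 1000 tested domains that hold a region, 20 (2.00%) were longer in mesothelium, against 1.41% of all tested domains, and 40 (4.00%) were longer in epithelium, against 2.53% of all. These shares were not tested against the background. Among the 5839 tested domains with peaks in all 4 libraries and no such region they were 1.37% and 2.52%, and these domains are shorter under peaks, with a median of 2.37 kb, against 7.75 kb in the 1000. Of the 60 calls, 33.3% were longer in mesothelium, but 53.3% with quantile normalization and 57.7% with scaling to each library's total. Without epithelium replicate 1, 1 domain was longer in mesothelium and 2 in epithelium, and without epithelium replicate 2, 2 and 1; other counts that moved by over 1.5 times are given with the alternatives.

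The 5 called domains with the largest excess in mesothelium were those of Mipep, Xpo4, Rala, Yeats2 and Arhgap29. The Mipep domain, of a mitochondrial peptidase, held 13.4 and 15.8 kb in mesothelium, against 1.78 and 1.45 kb in epithelium. The log2 difference was 2.90 ± 0.52 (SE, limma adjusted p = 0.0023, and 4.55e-05 to 0.0619 over 12 alternatives). Its 1 shared distal region had 1205 and 970 bp, against 355 and 593 bp. Xpo4, a nuclear transport receptor, had 10.4 and 17.4 kb, against 0.754 and 2.87 kb (limma adjusted p = 0.0071, and 0.00013 to 0.128 over the alternatives). Rala, a small GTPase, had 9.35 and 7.46 kb, against 0.549 and 1.69 kb (limma adjusted p = 0.018, and 0.0037 to 0.185). Its region had 1192 and 492 bp, against 549 and 571 bp, so in epithelium replicate 1 the shared region was all that was covered. Yeats2, a reader of acetylated histones, had 7.96 and 15.4 kb, against 1.81 and 2.32 kb (limma adjusted p = 0.019, and 0.0046 to 0.201). Arhgap29, which inactivates the GTPase RhoA, had 10.9 and 26.2 kb, against 3.40 and 3.44 kb (limma adjusted p = 0.010, and 0.00069 to 0.153). In each, both mesothelium libraries were above both epithelium libraries.

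The 5 with the largest excess in epithelium were Nckap5, Atp8a1, Ccnjl, Mlip and Sorcs2. The Nckap5 domain held 11.9 and 2.72 kb in mesothelium, against 68.6 and 77.9 kb in epithelium. The log2 difference was -3.48 ± 0.44 (SE, limma adjusted p = 0.00018, and 8.58e-17 to 0.0825 over 12 alternatives). Its region had 1142 and 342 bp, against 2115 and 4188 bp, with no base common to all 4. Atp8a1, a phospholipid flippase, had 5.504 and 3.81 kb, against 36.3 and 35.1 kb (limma adjusted p = 0.00031, and 2.85e-08 to 0.0533). Its region differed far less, with 1705 and 1044 bp, against 2783 and 1131 bp, and 780 bp common to all. The region in Ccnjl, a cyclin-like gene, was all that the mesothelium libraries had in that domain: 2.19 and 1.48 kb, against 12.9 and 17.7 kb in the domain in epithelium (limma adjusted p = 0.0044, and 0.00014 to 0.192). Mlip had 4.67 and 2.10 kb, against 22.5 and 21.8 kb (limma adjusted p = 0.0027, and 1.78e-05 to 0.121). Sorcs2, a receptor of the sortilin family with 3 regions, had 5.39 and 2.62 kb, against 22.3 and 26.7 kb (limma adjusted p = 0.0024, and 1.39e-05 to 0.154). Mesothelium replicate 1, which had more at epithelial markers, was the higher of the pair in all 5 of these domains. It was the lower in some other domains called longer in epithelium, App and Fras1 among them. Whether the marker values bear on the domain values was not tested.

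**Figure D5:**
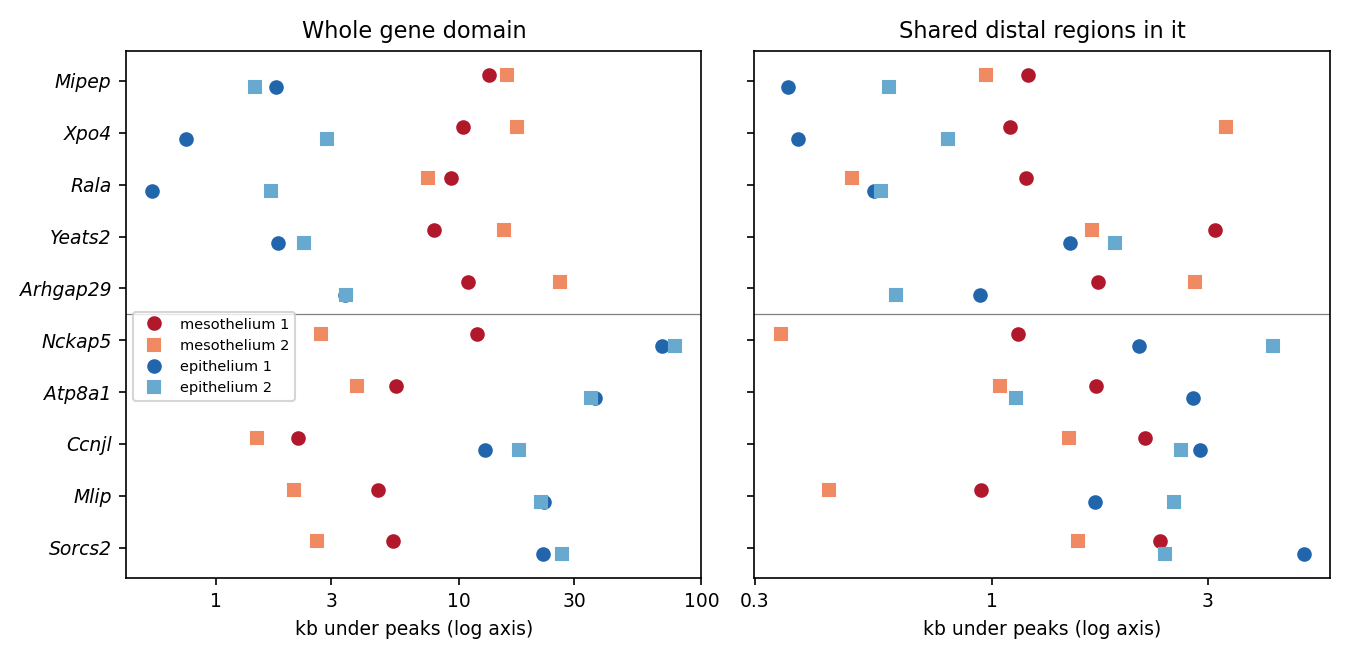
Kb under peaks (log axes) per library in the whole gene domain (left) and in its shared narrower distal regions (right), for the 5 called domains with the largest excess in mesothelium (top) and in epithelium (bottom); red and orange are mesothelium, blue shades epithelium, circles replicate 1 and squares replicate 2. The groups are apart in all 10 domains on the left and overlap on the right in Rala, Yeats2 and Atp8a1.

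Among the listed genes, called domains that held a region included Nfia (72.8 and 45.7 kb in mesothelium, against 34.4 and 28.2 kb in epithelium) and Tgfbr3, a TGF-beta co-receptor (24.4 and 23.7 kb, against 9.30 and 10.6 kb), which were longer in mesothelium. The domain of Tgfbr2, the type II TGF-beta receptor (8.97 and 5.99 kb, against 21.2 and 24.7 kb), was longer in epithelium. The limma adjusted p-values were 0.040 for Nfia, 0.038 for Tgfbr3 and 0.028 for Tgfbr2. The shared region of Tgfbr2 showed no such gap, with 1.17 and 0.830 kb in mesothelium, against 1.94 and 0.657 kb in epithelium. The Wwc1 domain, whose largest region difference is given above, was also called, with 11.7 and 8.02 kb in mesothelium, against 43.6 and 48.1 kb in epithelium (limma adjusted p = 0.00067). Of the 5 tested YAP, TAZ and TEAD domains with a region 0 were called, against 60 of the 1000.

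The thresholds of the rule cut through a continuous range. The regions just under 5 kb were in Mprip (4996 bp) and Rai1 (4994 bp), and those just over it in Abcc1 and Ppp1r12a (5004 bp each). The regions just beyond 2 kb from a gene end were in Mucl3 (2011 bp) and near Azin1 (2022 bp), and those just within it were near Rpl12 (2000 bp) and in Mta1 (1986 bp).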

How the data were processed

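Of the 6 libraries described, 4 H3K27ac peak lists (2 mesothelium, 2 epithelium) were used, grouped by sample title. The authors called broad peaks per library, as the peak names show; the submitters' processing notes name MACS2 2.2.9.1, Bowtie2 2.5.3 and the build mm10 without roles, and the threshold is not given in the sources used here. Per peak, the deposited files give a ratio (fold enrichment over background) and a −log10 q; both are the authors' values and were used to describe, rank and filter peaks within a list. Lists held 39010 and 41532 mesothelium peaks and 47873 and 46633 epithelium peaks. They hold no counts, depth is unknown, and a missing peak is not missing acetylation. How much was called moves with depth, so covered length does too.

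Overlapping peaks were merged (at least 1 bp), genes came from a RefSeq table of GRCm38.p6, and strand and internal starts from RefSeq promoter windows. Covered lengths were fitted with limma 3.58.1 (R 4.3.3), median-centred, with Benjamini-Hochberg adjustment and an intensity trend, tested on simulated data first. Domains used log2(kb + 0.5). Other steps used Python 3.11.15, pandas 2.3.3 and numpy 2.4.6. The members and gene lists were chosen with earlier results of these data known; all 280 genes of 18 lists matched. Genes were named by rule: the 12 strongest, the 8 domains with most regions, the 5 largest differences per direction, up to 3 regions per list, the 5 widest common stretches, threshold and most distant cases; some genes under it are not reported here. The listed genes with called domains were named after their values were seen, as were the examples from the lists. Alternatives varied peak threshold, merging, limits, scaling, pseudocount, filter, replicate block and libraries.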

Additional observations from a re-analysis of the deposited data

How the results depend on the processing

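Peak lists hold no depth, each group has 2 libraries, and most peaks lie close to the deposited threshold, so the number of shared regions rests on that threshold. With a −log10 q of at least 2 the 1424 regions became 125, and with at least 4 they became 1; under 3 kb there were 689. Leaving out 1 library gave 2227 to 2648. Other limits on merging, distance and width gave 1211 to 1824, and merging abutting peaks too, an alternative chosen after seeing the data, gave 1425. The share inside coding genes was 78.4% with −log10 q of at least 2, 77.5% under 3 kb, 85.2% beyond 5 kb from gene ends, and 80.2% to 84.3% with 1 library left out. The share with a base common to the libraries was 86.4% at −log10 q of at least 2, 64.2% under 3 kb, and 73.5% to 76.9% with 1 library left out, where 3 libraries had to share it. The share whose nearest gene had end peaks in all libraries was 5.60% at −log10 q of at least 2, 20.4% with equal numbers of peaks, 20.5% under 3 kb, and 24.5% to 30.8% with 1 library left out. At the stricter −log10 q the end peaks had to reach it as well.

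No distal region passed for covered length under any alternative. Other shared regions did: with the replicate number as a block, 2 of all 4278 were longer in mesothelium and 26 in epithelium. Some also passed without mesothelium replicate 1. Counts of called domains with a region, longer in mesothelium and in epithelium, were 20 and 40. They were 9 and 24 for gene bodies with 5 kb flanks, 0 and 0 for log2(kb + 0.1), 12 and 33 without centring, 16 and 14 with quantile normalization, and 15 and 11 scaled to total length. Over all tested domains these settings gave, in the same order, 94 and 182, 2 and 2, 93 and 199, 93 and 124, and 93 and 114. At log2(kb + 0.1), 218 of the 1000 domains with a region (21.8%) had an unadjusted p under 0.05 in limma, against 15.8% of all 10484. Leaving out 1 library gave 1 to 21 and 1 to 81, with 81 without mesothelium replicate 1 and 25 without mesothelium replicate 2. With the replicate number as a replicate block they were 33 and 56. Same-numbered libraries did not deviate together (correlation 0.05 over regions, 0.03 over domains). This cannot show how libraries were prepared, and the labels do not say whether the numbers are a pairing. Of 120 refits of the 10 named domains, 91 kept the call, 29 lost it and 0 reversed. The cause was not tested.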
